A study of Arabidopsis thaliana with 6 samples.

Results

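The genes described here are 36 arabinogalactan protein genes of Arabidopsis thaliana, found by locus code among the 27827 probe sets of the deposited table. All 36 codes were present, each with 1 probe set, and all 36 carry an AGP or FLA name in the TAIR10.1 gene table. They were grouped by known protein type into 7 classes: 11 classical AGPs, 3 lysine-rich AGPs, 9 AG peptides, the pair AGP30 and AGP31, and 6, 4 and 1 fasciclin-like genes (FLA) of groups A, C and D. Total RNA was taken from whole seedlings at 17 days of age, 3 samples of naa20-1 and 3 of the wild-type accession Col-0, with 1 array per sample. The naa20-1 mutant is depleted of NatB's catalytic subunit, according to the series' design text, and the sources used here do not give the type of lesion. Both genotypes grew untreated on MS medium of 1x strength with a short day (8.5 h of light, 100 µE). Whether the samples of a genotype were grown separately is not stated in the labels, and the p-values speak only for the scatter among these arrays, which may be technical.

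Arabinogalactan proteins are secreted wall and plasma membrane proteins. They enter the secretory pathway behind a signal peptide, their prolines are hydroxylated, and galactosyltransferases and other enzymes then build large arabinogalactan chains on the hydroxyprolines. Classical AGPs and the much shorter AG peptides are mostly tethered to the membrane by a glycolipid anchor. FLAs add fasciclin domains, which are known for cell adhesion in animals, and AGP30 and AGP31 carry a cysteine-rich C-terminal domain and no such anchor. NatB places an acetyl group on the first residue of many cytosolic proteins; NAA20 is its catalytic subunit and NAA25 the auxiliary one.

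Levels are given on the log2 scale after RMA, which corrects background, gives the arrays the same distribution and turns the probes for a gene into a single value. Each difference is naa20-1 minus Col-0, and errors are SD over 3 arrays unless an SE is named. The p-values of limma's moderated test were adjusted by Benjamini-Hochberg over 27241 genes, and those with an adjusted p under 0.05 are termed called. A log2 level depends on the probes as well as on the transcript, so levels were compared between genotypes and not between genes. Several of these short genes resemble each other in coding sequence, and the sources used here do not define the probe sets, so a member's signal may include that of a relative. The locus taken for NAA20, AT1G03150, has no symbol in the gene table and was assigned from general knowledge; it was lower in naa20-1 (difference -1.07, SE 0.18, adjusted p = 0.0407).

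AGP30 was the only member called. It was 3.17-fold lower in naa20-1 seedlings, and 0 members were called higher. The other 35 did not pass the test, although 26 of the 36 differences lay below 0 and, after AGP30, those of AGP14 and FLA6 were the lowest. A single call is 2.78% of the members, against 1.15% of all genes tested, and lower calls were 0.767% and higher calls 0.382% of all genes. Without the adjustment, 11 members were lower and 0 higher at a p under 0.05 in limma, where 7.19% of all genes were lower and 7.02% higher. The median difference over the 36 was -0.14, beside 0.01 over all genes.

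AGP30 (AT2G33790) is a gene known from roots, where its product has been tied to regeneration in culture and to the timing of germination. It stood at 5.11, 5.004 and 5.34 in the naa20-1 samples 1 to 3, against 6.89, 6.81 and 6.75 in the Col-0 samples. All 3 mutant values lay more than 1 log2 unit below the lowest wild-type value. The group means were 5.15 ± 0.17 in naa20-1 and 6.82 ± 0.07 in Col-0 (SD, n = 3 each). The difference of -1.66 (SE 0.11, 95% interval -1.92 to -1.41) had an adjusted p of 0.00246. Over all genes AGP30 had the 7th smallest p and the 19th lowest difference.

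AGP31 (AT1G28290), the relative of AGP30 with a similar cysteine-rich domain, is known from vascular tissue and as a gene that methyl jasmonate lowers. Its values were 11.39, 11.37 and 11.22 in naa20-1, against 11.56, 11.60 and 11.54 in Col-0. The groups did not overlap, but the difference of -0.24 (SE 0.09) did not pass the test (adjusted p = 0.267). The 95% intervals of these relatives did not meet, since that of AGP31 ran from -0.44 to -0.04. The difference between their differences was not tested.

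**Figure D1:**
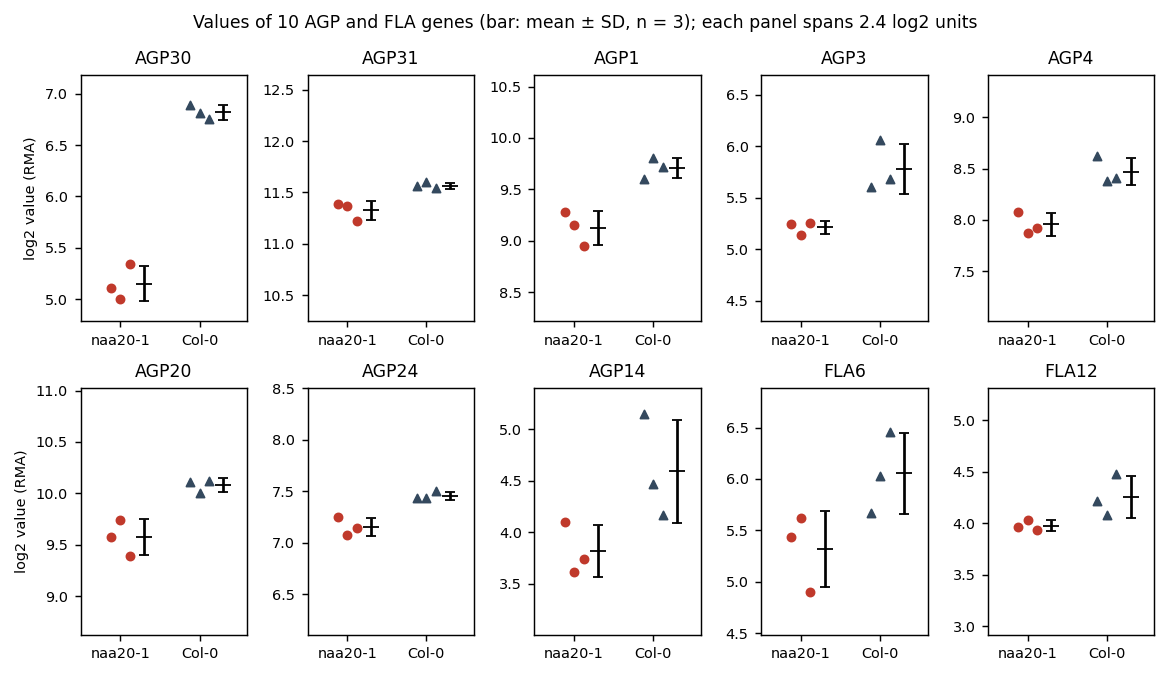
Log2 values after RMA (vertical axis) of 10 AGP and FLA genes in each naa20-1 array (red circles) and Col-0 array (dark triangles), with mean ± SD beside them (n = 3) and the same span on every panel. In AGP30 the genotypes lie 1.66 log2 units apart, and in the 9 others, none of which passed the test, the gap between means is 0.24 to 0.78.

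Most, but not all, markers of root tissue lay on the same side of the wild type as AGP30. These markers, a list of 15 genes of the Casparian strip, root hairs and root transporters, had 11 differences below 0 (73.3%, against 48.8% of all genes), with a median of -0.27 and 0 members called. Their mean log2 level was 6.45 to 6.55 in naa20-1 and 6.77 to 6.82 in Col-0. Of the 15, 7 lay lower in naa20-1 with no overlap between groups (46.7%, against 10.5% of all genes). The 3 genes MYB36, NRT2.1 and RHD6 were under the 25th percentile of the table (3.76) in both groups. The 7 without overlap were CASP1 to CASP5 of the Casparian strip, TIP2;3 and PRP3. This list was chosen with earlier results of these data known, and CASP1 to CASP5 belong to the same structure, so its shares were not tested. The 4 above 0 were MYB36 (0.13), TIP2;2 (0.10), NRT2.1 (0.10) and COBL9 (0.04), and PRP1, EXPA7 and RHD6 differed by -0.07 each. The aquaporin gene TIP2;3 differed by -0.69 (SE 0.12) with an adjusted p just above the threshold, and CASP4 of the Casparian strip had -0.59 (SE 0.13, adjusted p = 0.102). The lowest difference of the list was -0.98, that of CASP5, so none of these markers was as far below Col-0 as AGP30. In RNA from whole seedlings, fewer cells of a type and less RNA per cell cannot be told apart. The part of root tissue in the AGP30 result was not tested.

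**Figure D2:**
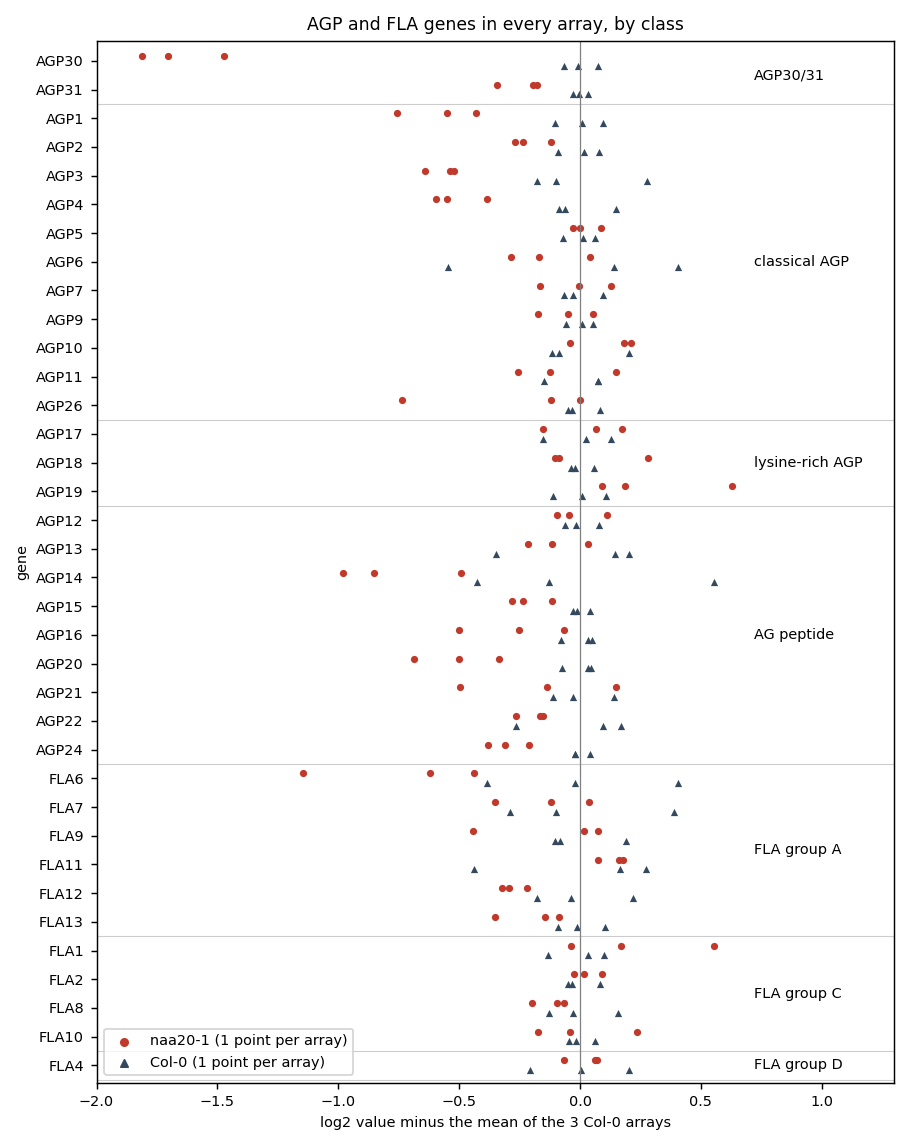
Log2 value of each of the 36 genes (rows, grouped by class) in each array, minus the mean of the 3 Col-0 arrays, with naa20-1 as red circles above Col-0 as dark triangles. AGP30 stands alone on the left, and 12 genes have all 3 naa20-1 points left of all 3 Col-0 points.

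Classical AGPs, whose proline-rich backbone carries most of the glycan, split into a few genes below the wild type and a larger number close to it. None of the 11 was called, 9 differences were negative, and the median was -0.14. In AGP1, AGP2, AGP3 and AGP4 all naa20-1 values lay below all Col-0 values, as in 10.5% of all genes tested, and in the other 7 the groups overlapped.

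AGP1 (AT5G64310) had 9.28, 9.15 and 8.95 in naa20-1, against 9.60, 9.80 and 9.71 in Col-0. The genotypes were apart in every sample, and the difference was -0.58 (SE 0.11, adjusted p = 0.0654). AGP4 (AT5G10430), known as JAGGER for its part in keeping further pollen tubes out of a fertilised ovule, had 8.08, 7.87 and 7.92 in naa20-1, against 8.62, 8.38 and 8.41 in Col-0. Its difference was -0.51 (SE 0.10, adjusted p = 0.0788). AGP3 (AT4G40090) had 5.24, 5.14 and 5.26 in naa20-1, against 5.61, 6.06 and 5.68 in Col-0. The mutant values were close together and the spread lay in the wild type, with Col-0 sample 2 highest (difference -0.57, SE 0.13, adjusted p = 0.109). These 3 genes missed the threshold as reported. AGP1 and AGP4 passed it when the dimmest 40% of probe sets were left out (adjusted p = 0.0341 and 0.0408) and with a variance trend and robust fit (0.00671 and 0.0151), and AGP3 passed it under none of the 12 alternatives run. Leaving out dim probe sets gave calls in 2.61% of the genes tested and the variance trend in 2.93%, against 1.15% as reported.

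AGP2 was lower by less, at 7.40 ± 0.08 in naa20-1 and 7.61 ± 0.09 in Col-0 (difference -0.21, SE 0.09, adjusted p = 0.360). AGP26 differed by -0.29 (SE 0.19, adjusted p = 0.551), or -0.06 without naa20-1 sample 3 at 6.99; samples 1 and 2 stood at 7.73 and 7.61 beside 7.68 to 7.81 in Col-0. AGP9 (-0.06), AGP7 (-0.01), AGP5 (0.02) and AGP10 (0.12) lay close to the wild type. AGP6 and AGP11, which act together in pollen, differed by -0.14 and -0.08. Both were dim, with group means under the 25th percentile of the table, as were those of AGP5. Of the 6 pollen markers, 3 were under that percentile in both groups as well.

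Lysine-rich AGPs carry a short basic stretch within the glycosylated backbone. AGP17 is known from Agrobacterium binding to roots, AGP18 from the choice of the functional megaspore and AGP19 from growth of the plant. None of the 3 was called, all 3 differences were above 0, and the groups overlapped in each. AGP19 (AT1G68725) had 5.14, 5.23 and 5.67 in naa20-1, against 4.93, 5.05 and 5.16 in Col-0. Sample 3 of the mutant stood highest (difference 0.30, SE 0.15, adjusted p = 0.428), and without it the difference was 0.14. AGP18 (AT4G37450) had 9.24, 9.61 and 9.23 in naa20-1, against 9.31, 9.29 and 9.39 in Col-0, so that 1 mutant sample lay above the wild type and the others below it. Its difference was 0.03 (SE 0.12, 95% interval -0.25 to 0.31, adjusted p = 0.943). AGP17 (AT2G23130) had 7.24, 7.35 and 7.02 in naa20-1, against 7.20, 7.02 and 7.30 in Col-0 (difference 0.03, SE 0.12, 95% interval -0.25 to 0.31, adjusted p = 0.944). The sign of these last differences turned when naa20-1 sample 2 was left out (AGP18 -0.10, AGP17 -0.04), and that of AGP17 also without Col-0 sample 2 (-0.05).

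AG peptides consist of little more than a short glycosylated stretch and its anchor. All 9 differences in this class were negative, from -0.78 to -0.01 with a median of -0.21, but none was called. In 4 of the 9, AGP14, AGP15, AGP20 and AGP24, every naa20-1 value lay below every Col-0 value (44.4%, against 10.5% of all genes), and the same 4 had an unadjusted p under 0.05 in limma (against 7.19% of all genes on the lower side). The differences of all genes tested lay below 0 in 48.8%. Those of AGP12, AGP13 and AGP21 turned above 0 with single samples left out (up to 0.03, 0.003 and 0.01).

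AGP20 (AT3G61640) had 9.58, 9.74 and 9.39 in naa20-1, against 10.11, 10.00 and 10.13 in Col-0. The groups did not overlap, and the difference was -0.51 (SE 0.11, adjusted p = 0.0921). It passed the threshold with a variance trend and robust fit (adjusted p = 0.0110), where 2.93% of all genes were called, against 1.15% as reported. AGP24 (AT5G40730) had 7.25, 7.07 and 7.15 in naa20-1, against 7.43, 7.44 and 7.50 in Col-0, a smaller gap between tight groups (difference -0.30, SE 0.09, adjusted p = 0.170). AGP14 (AT5G56540), known from roots where loss of the gene lengthens root hairs, had 4.10, 3.61 and 3.74 in naa20-1, against 5.15, 4.46 and 4.16 in Col-0. It had the lowest difference of the class, -0.78, and also the widest spread, with an SD of 0.50 in Col-0 (SE 0.25, adjusted p = 0.219). Its naa20-1 samples 2 and 3 were under the 25th percentile of the table (3.76), so signal over background cannot be judged there. With a sample left out its difference ran from -0.99 to -0.50, which is its value without Col-0 sample 1.

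The other AG peptides were closer to the wild type. AGP15 was at 11.02 ± 0.08 in naa20-1 and 11.23 ± 0.04 in Col-0 (difference -0.21, SE 0.09, adjusted p = 0.322). AGP16 (-0.27), AGP22 (-0.20), AGP21 (-0.16), AGP13 (-0.10) and AGP12 (-0.01) overlapped between groups. In AGP16 and AGP21, naa20-1 sample 3 was the lowest of the 6 arrays, at 9.82 and 9.85. AGP12 lay nearest to the wild type, at 9.04 ± 0.11 in naa20-1 and 9.05 ± 0.07 in Col-0.

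FLA genes of group A encode proteins with 1 fasciclin domain between AGP stretches, and FLA11 and FLA12 among them are known from secondary walls of stems. None of the 6 was called, and 5 differences were negative with a median of -0.17. FLA6 (AT2G20520) had 5.43, 5.62 and 4.91 in naa20-1, against 5.67, 6.03 and 6.46 in Col-0. The groups did not overlap, yet the values within each ran over 0.7 log2 units or more, and the difference of -0.74 (SE 0.24) had an adjusted p of 0.226. FLA12 (AT5G60490) had 3.96, 4.04 and 3.93 in naa20-1, against 4.22, 4.08 and 4.47 in Col-0, which left only a narrow gap between the groups (difference -0.28, SE 0.12, adjusted p = 0.334, and -0.17 without Col-0 sample 3). FLA13 (AT5G44130) had 6.21, 6.42 and 6.47 in naa20-1, against 6.55, 6.47 and 6.66 in Col-0. The groups met at 6.47, and the difference was -0.19 (SE 0.10, adjusted p = 0.463, and -0.12 without naa20-1 sample 1). FLA7 (-0.15), FLA9 (-0.12) and FLA11 (0.14) overlapped between groups.

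FLA11 and FLA12 were set beside 12 markers of the secondary wall and xylem. All 12 marker differences were negative, where 48.8% of all genes lay below 0, with a median of -0.17 and 0 members called. Of the 12, 7 did not overlap between groups, each with naa20-1 lower (58.3%, against 10.5% of all genes). This list too was chosen with earlier results of these data known, and its shares were not tested. Their mean log2 level was 7.35 to 7.45 in naa20-1 and 7.60 to 7.63 in Col-0, and 1 of them, XCP2, was under the 25th percentile in both groups. XCP1, a protease of differentiating xylem, had a difference of -0.49 (SE 0.10, adjusted p = 0.0693) and its relative XCP2 of -0.43 (SE 0.11, adjusted p = 0.151). FLA12 lay on the same side of the wild type as these markers. FLA11 had 5.39, 5.29 and 5.38 in naa20-1, against 5.38, 4.78 and 5.49 in Col-0, and its difference of 0.14 (SE 0.18, adjusted p = 0.787) turned to -0.08 without Col-0 sample 2. The part of xylem in the FLA values was not tested.

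FLA genes of group C encode longer proteins, most of which hold a pair of fasciclin domains. None of the 4 was called, the differences ran from -0.12 to 0.23 with a median of 0.02, and the groups overlapped in each. FLA1 (AT5G55730), known from shoot regeneration and lateral roots, had 6.40, 6.20 and 6.79 in naa20-1, against 6.33, 6.27 and 6.10 in Col-0. Its difference of 0.23 (SE 0.16, adjusted p = 0.571) rested on naa20-1 sample 3, the highest of the 6, and came to 0.07 without it. FLA8 (AT2G45470) had 8.22, 8.33 and 8.36 in naa20-1, against 8.39, 8.58 and 8.29 in Col-0 (difference -0.12, SE 0.10, 95% interval -0.36 to 0.12, adjusted p = 0.662), which came to -0.04 without Col-0 sample 2. FLA2 (AT4G12730) had 6.94, 6.82 and 6.86 in naa20-1, against 6.93, 6.80 and 6.81 in Col-0. The values of the genotypes were interleaved, and the difference of 0.03 (SE 0.09, adjusted p = 0.923) had a 95% interval of -0.17 to 0.23. FLA10 (0.01) had both means under the 25th percentile of the table.

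FLA4 (AT3G46550), placed in group D, is also known as SOS5 from a mutant with swollen root tips on salt. It had 5.24, 5.36 and 5.37 in naa20-1, against 5.31, 5.09 and 5.50 in Col-0. The mutant values lay within the range of the wild type, with a difference of 0.02 (SE 0.12, 95% interval -0.26 to 0.30, adjusted p = 0.960). FEI1 and FEI2, receptor-like kinases known to act in a pathway with SOS5, differed by 0.10 (SE 0.08, adjusted p = 0.638) and 0.16 (SE 0.08, adjusted p = 0.438). The series title names osmotic stress, but no salt or osmotic treatment is given for these samples, so the values of FLA4 are those of untreated seedlings.

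**Figure D3:**
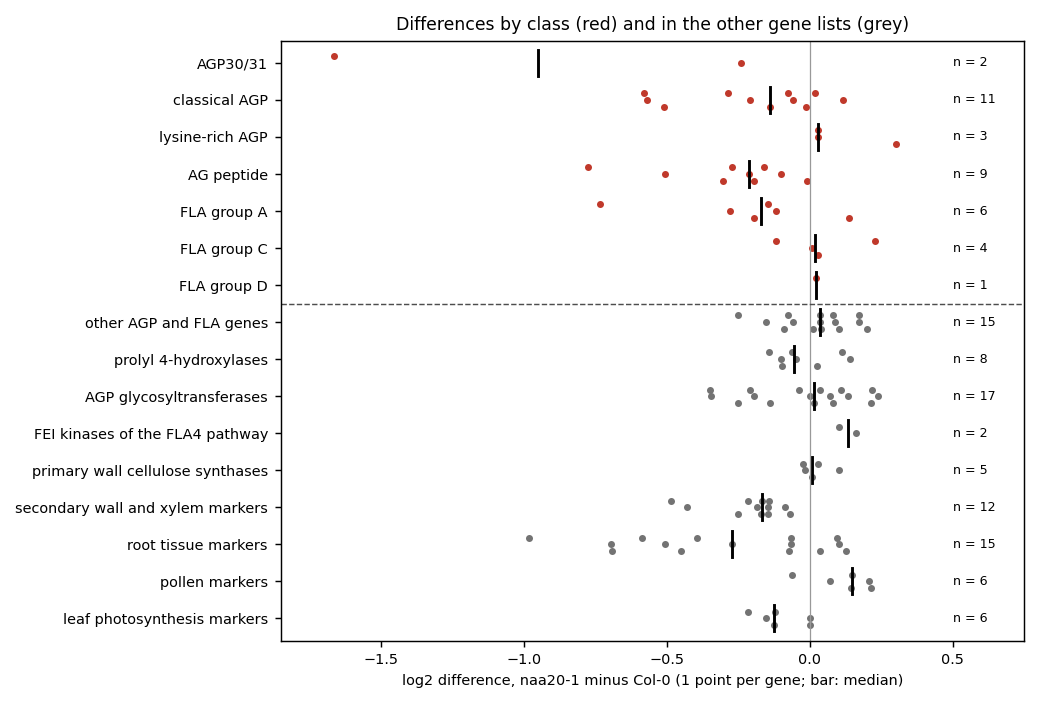
Log2 difference, naa20-1 minus Col-0 (horizontal axis), of each gene in the 7 classes of AGP and FLA genes (red) and in 9 other lists (grey), with the median of each as a black bar and n at the right. Among the classes the medians run from -0.95 in the pair AGP30 (-1.66) and AGP31 (-0.24), near which neither gene lies, to 0.03 in lysine-rich AGPs. Among the other lists the lowest median, -0.27, is that of root tissue markers.

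Over all 36 members, 12 did not overlap between genotypes, each with naa20-1 lower, and 0 with naa20-1 higher. That is 33.3% of the members, where 10.5% of all genes tested were apart on the lower side and 10.6% on the higher side. The members were chosen with earlier results of these data known, so these shares, and those by class, were not tested. Of the 12, 10 were among the 25 AGP members and 2 among the 11 FLA members. Differences beyond 0.5 in size were found in 7 members (19.4%, against 4.35% of all genes), and in all 7 naa20-1 was lower: AGP30, AGP14, FLA6, AGP1, AGP3, AGP4 and AGP20. The median difference was -0.20 in the AGP members and -0.12 in the FLA members, and this contrast was not tested.

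The samples of the mutant did not contribute equally. Relative to the Col-0 mean, the median member lay at -0.12, -0.12 and -0.20 in naa20-1 samples 1, 2 and 3, and 26, 25 and 27 of the 36 members were below it. In the Col-0 samples the same median was -0.01, -0.03 and 0.03, with 19, 22 and 16 members below the mean. Leaving out each of the 6 samples in turn, the sign of the difference turned at least once in 16 of the 36 members, whose largest difference as reported was 0.16 in size, and in 0 of the 12 whose groups did not overlap. Without naa20-1 sample 3 the median difference of the members was -0.09 and 7 members were lower at an unadjusted p under 0.05. AGP30 itself was highest in that sample among the mutants, and its difference was -1.76 without it (adjusted p = 0.00942). The SD within a genotype was 0.05 to 0.39 over members in naa20-1 (median 0.14) and 0.03 to 0.50 in Col-0 (median 0.11), and over all genes its median was 0.14 in naa20-1 and 0.12 in Col-0.

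Further genes of the family and the enzymes that modify AGPs showed no called change. Over all genes tested 1.15% were called, so 0 calls in lists this short say little. At an unadjusted p under 0.05 in limma, 7.19% of all genes were lower and 7.02% higher. Of 15 other AGP and FLA genes, 0 were called, 0 had an unadjusted p under 0.05 in limma, 10 differences were positive and the median was 0.03. In 7 of them both means were under the 25th percentile, among them FLA20 (-0.25, SE 0.11, adjusted p = 0.369) and FLA3 (0.20, SE 0.09, adjusted p = 0.405), which is known from pollen. None of 8 genes listed as prolyl 4-hydroxylases, the enzymes that make hydroxyproline, was called (0 at an unadjusted p under 0.05, median -0.06). P4H2 had a difference of -0.14 (SE 0.09, adjusted p = 0.546) and AT5G18900, which has no symbol in the gene table, of 0.14 (SE 0.09, adjusted p = 0.538).

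Of 17 genes listed as AGP glycosyltransferases, 0 were called, 2 were higher and 2 lower at an unadjusted p under 0.05 in limma, and the median was 0.01. GALT29A, which extends the galactan, was at 7.35, 7.50 and 7.17 in naa20-1, against 7.74, 7.67 and 7.65 in Col-0 (difference -0.34, SE 0.10, adjusted p = 0.196). GLCAT14A, which adds glucuronic acid, was at 8.72, 8.81 and 8.76 in naa20-1, against 8.60, 8.54 and 8.50 in Col-0 (difference 0.21, SE 0.08, adjusted p = 0.291). These enzymes of the same glycan lay on opposite sides of the wild type, each with no overlap between groups, and neither passed the test. Of the 17, 4 did not overlap with naa20-1 higher (23.5%, against 10.6% of all genes). Another 2 did not overlap with naa20-1 lower (11.8%, against 10.5%). The 5 primary wall cellulose synthase genes gave 0 calls and 0 unadjusted p-values under 0.05, with a median of 0.01. CESA1 differed by 0.10 (SE 0.08, adjusted p = 0.636) and CESA3 by -0.02 (SE 0.08, adjusted p = 0.928).

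Pollen and leaf markers were also without calls. The 6 pollen markers had a median difference of 0.15 and 0 unadjusted p-values under 0.05, with PPME1 at 0.15 (SE 0.11, adjusted p = 0.594) and VGD1 at 0.21 (SE 0.18, adjusted p = 0.654). The 6 leaf photosynthesis markers had a median of -0.12 and 1 unadjusted p under 0.05, that of LHCB1.3 (-0.22, SE 0.08, adjusted p = 0.268), followed by LHCA3 (-0.12, SE 0.08, adjusted p = 0.535). In LHCB1.3 and LHCA3 every naa20-1 value lay below every Col-0 value (33.3% of the leaf list, against 10.5% of all genes). RBCS1A had a mean of 14.18 in both groups, with an SD of 0 in Col-0. LHCB3 had means of 13.83 in naa20-1 and 13.82 in Col-0. Both lay near the top of the range of the arrays, where a difference may not show. AT5G58450, taken for NAA25 from general knowledge as it carries no such symbol in the gene table, differed by 0.09 (SE 0.08, adjusted p = 0.669).

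**Figure D4:**
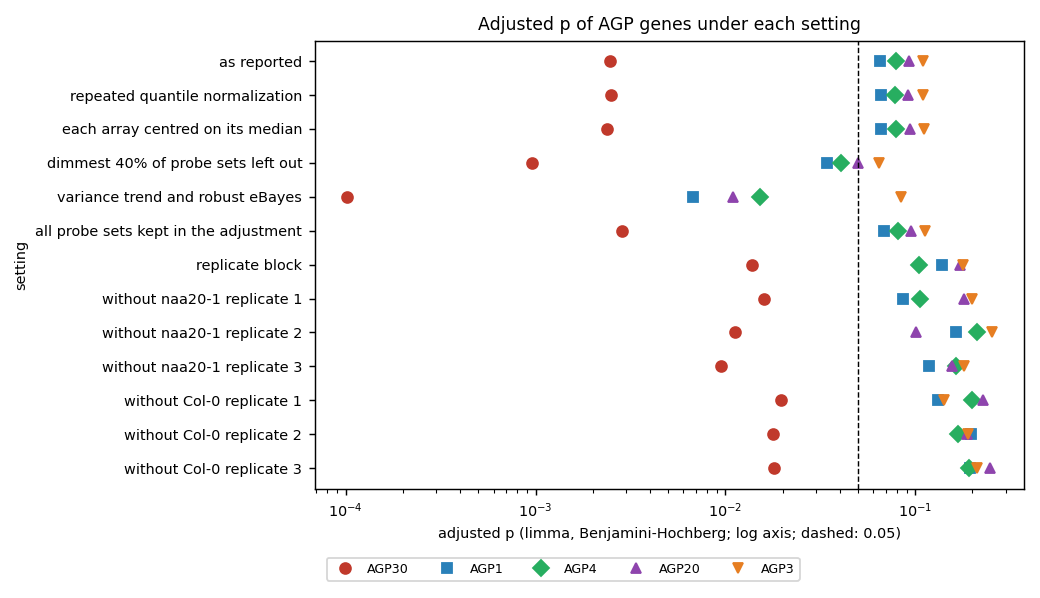
Adjusted p (log axis) of AGP30, AGP1, AGP4, AGP20 and AGP3 as reported and under 12 other settings, with the threshold of 0.05 dashed. AGP30 stays left of the threshold in every setting shown (highest value 0.0195), AGP1 and AGP4 cross it in 2 settings, AGP20 in 1 and AGP3 in 0.

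AGP30 was called under all 12 alternatives, which repeated the normalization, filtered probe sets, changed the variance model or the set tested, added a replicate block or left out each sample in turn. Its difference ran from -1.76 to -1.59 and its adjusted p from 0.000102 to 0.0195. No other member was called with any sample left out.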

How the data were processed

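Biotin-labelled cRNA was hybridised to 6 arrays, and the authors deposited log2 values that RMA produced, per the submitters' processing notes. The sources used here do not give the array type, the probe set definition or the software. Detection calls are not part of the table, so dim signals may be background, and the number of arrays limits the precision. The sorted values of 5 of the 6 arrays were identical, and those of the remaining array were not exactly the same. Pearson correlations across genes were 0.993 to 0.995 within a genotype and 0.990 to 0.993 between genotypes.

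The 27241 probe sets whose locus code is in the TAIR10.1 gene table entered a linear model in limma 3.58.1 (lmFit, eBayes; R 4.3.3) with genotype as the only term, two-sided, and Benjamini-Hochberg adjustment. The other 586 probe sets were left out.

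The members and lists were chosen with earlier results of these data known. Full values are given for called members and for up to 3 members a class with the smallest p, and in each other list for called genes or else the 2 smallest p. AGP2, AGP12, AGP15, AGP16, AGP21, AGP26, FLA11, CASP5, RBCS1A and LHCB3 were added after their values were seen. So were the genes given only by name or by their difference. In the lists of prolyl 4-hydroxylases (4 of 8) and glycosyltransferases (8 of 17) some genes have no symbol in the gene table and were placed from general knowledge. The samples were not treated as paired. Deviations of same-numbered samples correlated at 0.01 to 0.06, and those of differently numbered samples at -0.05 to 0.02. This cannot decide whether samples were paired, since the numbers in titles and descriptions differ for some samples.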

Additional observations from a re-analysis of the deposited data

How the results depend on the processing

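Of 213 values of the 18 members with full statistics under the 12 alternatives, 202 kept their direction and their side of the threshold. AGP1 and AGP4 passed the threshold without the dimmest 40% of probe sets, and AGP1, AGP4 and AGP20 with a variance trend and robust fit. With a sample left out, the sign turned for 4 members near 0: AGP17 (-0.047 to 0.12, below 0 without naa20-1 or Col-0 replicate 2), AGP18 (-0.096 to 0.096, below 0 without naa20-1 replicate 2), FLA2 (-0.0041 to 0.068, below 0 without naa20-1 replicate 1) and FLA4 (-0.082 to 0.12, below 0 without naa20-1 replicate 3 or Col-0 replicate 2).

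Members called lower numbered 3 without the dimmest 40% of probe sets (27 of 36 members kept), where 2.61% of the genes tested were called. They numbered 4 with the variance trend, where 2.93% were called, and 1 with any sample left out. As reported, 1.15% of all genes were called. The median difference of the members was -0.19 without dim probe sets, where 9 members are not in the median, and -0.18 to -0.087 with a sample left out. Over all genes, 311 were higher and 486 lower with the variance trend, against 104 and 209 as reported. Leaving out a sample gave 11 to 63 higher and 51 to 134 lower, with every sample left out in turn giving fewer calls, from 0.239% of genes without Col-0 replicate 1 to 0.723% without naa20-1 replicate 3. The cause of these changes was not tested.

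The replicate number as a block left 61 genes higher and 129 lower and AGP30 called (adjusted p = 0.0138). Same-numbered samples did not all correlate best with each other, and the numbers in titles and descriptions differ for some samples. Signal over background cannot be judged for the dim members AGP5, AGP6, AGP11 and FLA10, or for AGP14 in naa20-1.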
